A study of Homo sapiens with 27 samples.

Results

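The MHC class I presentation genes and CD74 were followed across 3 human cell lines that carried excess MAML3, a coactivator of the Notch pathway. The rows were taken by gene symbol: 9 genes were named, 8 of them had a row among the 23230 symbols of the count table (HLA-C, HLA-E, HLA-F, B2M, TAP1, TAP2, NLRC5 and CD74), and HLA-B was not analysed here. The established lines were SK-N-SH, from a neuroblastoma, with BON-1 plus QGP-1, from pancreatic neuroendocrine tumours. Each was transfected by lipid reagent with the empty pCMV6-AC plasmid (vector), with the plasmid carrying full-length MAML3 cDNA (FL), or with the plasmid carrying MAML3 cDNA without its first exon (dEx1). Both MAML3 proteins bore a V5 tag at the C terminus, the control plasmid carried neither sequence, and RNA was taken on day 3. Each of the 9 groups had 3 libraries, labelled as biological replicates, so that 27 libraries were compared. No label says that equal replicate numbers mark a shared day or passage. Transfection was transient, and the share of cells that took up plasmid was not given.

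MHC class I molecules show peptides from inside the cell to CD8+ T cells. A heavy chain (HLA-C here, with the non-classical HLA-E and HLA-F) pairs with beta-2 microglobulin, the product of B2M. The TAP1 and TAP2 proteins together form the pump that carries peptides from the cytosol into the endoplasmic reticulum, where they are loaded. NLRC5 is the transactivator of class I genes, and interferons raise NLRC5 and its target genes together. CD74, the invariant chain, belongs to the class II pathway, where it blocks the groove of new class II molecules, and it also serves at the cell surface as a receptor for the cytokine MIF. Neuroblastoma cells are known for low class I display.

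In the hg19 build that the labels name, the class I genes sit apart from B2M, NLRC5 and CD74. HLA-F (chr6:29690552-29706305, plus strand), HLA-E (chr6:30457286-30461971, plus), HLA-C (chr6:31236526-31239907, minus), TAP2 (chr6:32789610-32806516, minus) and TAP1 (chr6:32812986-32821593, minus) lie in the MHC. B2M is at chr15:45003556-45011049 (plus), NLRC5 at chr16:57023397-57117443 (plus) and CD74 at chr5:149781200-149792532 (minus). The heavy chain genes are related in sequence, to an extent not measured here, so the split of reads among them is uncertain. HLA-F overlaps HLA-F-AS1 and TAP1 overlaps PSMB9 and PSMB8-AS1, all on the opposite strand. The strandedness of the counting was not given in the sources used here, so reads in these overlaps cannot be told apart. HLA-F-AS1 was low in SK-N-SH, at 0.437 ± 0.323 CPM with vector (SD, n = 3).

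Because these genes moved together in SK-N-SH, the bases before their annotated starts are shown. RefSeq's GRCh38.p14 promoter table had an entry for 7 of the 9 named genes, with none for HLA-E and NLRC5. The entry of HLA-B, which was not analysed here, is left out of what follows. Capitals mark matches on either strand, in the 250 bases before the start, to 5 patterns: the ISRE core (GAAA, any 2 bases, then GAAA), a pattern bound by interferon regulatory factors, the GAS pattern TTCNNNGAA, a pattern bound by STAT dimers, an NF-kB site, the CRE-like TGACG and the Y box CCAAT. The stretches read 5′ to 3′ on the strand of the gene.
HLA-F, chr6:29723264-29723386, plus strand, 170 to 48 bases before the start: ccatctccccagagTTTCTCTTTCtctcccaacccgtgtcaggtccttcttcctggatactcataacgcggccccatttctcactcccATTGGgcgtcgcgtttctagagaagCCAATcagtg
HLA-C, chr6:31272140-31272272, minus strand, 180 to 48 bases before the start: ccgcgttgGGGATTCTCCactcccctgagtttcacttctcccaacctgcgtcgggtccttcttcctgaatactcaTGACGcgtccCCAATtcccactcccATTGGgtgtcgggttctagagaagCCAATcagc
B2M, chr15:44711367-44711477, plus strand, 150 to 40 bases before the start: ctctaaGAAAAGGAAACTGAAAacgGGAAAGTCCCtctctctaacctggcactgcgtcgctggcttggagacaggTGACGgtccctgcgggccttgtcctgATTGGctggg
TAP1, chr6:32853760-32853844, minus strand, 140 to 56 bases before the first of 2 listed starts: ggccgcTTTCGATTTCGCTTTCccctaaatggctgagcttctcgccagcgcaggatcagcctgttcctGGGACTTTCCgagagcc
TAP2, chr6:32838765-32838814, minus strand, 75 to 26 bases before the start: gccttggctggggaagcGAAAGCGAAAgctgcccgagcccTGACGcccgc
CD74, chr5:150412911-150412970, minus strand, 60 to 1 bases before the start: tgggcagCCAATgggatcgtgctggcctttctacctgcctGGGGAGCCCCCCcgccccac

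The ISRE core was found before HLA-F, B2M, TAP1 and TAP2, and these letters were not in the windows of HLA-C, CD74 or the other TAP1 start. In B2M and in TAP1 a pair of ISRE cores overlapped. Over all 35116 promoters of the table, 3.02% held the ISRE core, 6.57% the GAS pattern, 9.96% the NF-kB site, 21.2% the CRE-like pattern and 32.0% the Y box. The NF-kB site was found before HLA-C, B2M, TAP1 and CD74, and the GAS pattern only before the other TAP1 start. HLA-C carried the CRE-like pattern and 4 Y boxes, 3 of them in the stretch shown, and HLA-F carried 2 Y boxes. The map of the matches shows their spacing. Only exact matches were marked, so the lack of a match does not show that a variant of the pattern is absent, in HLA-C or elsewhere. A match describes letters and is not shown here to be a site in use.

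**Figure D1:**
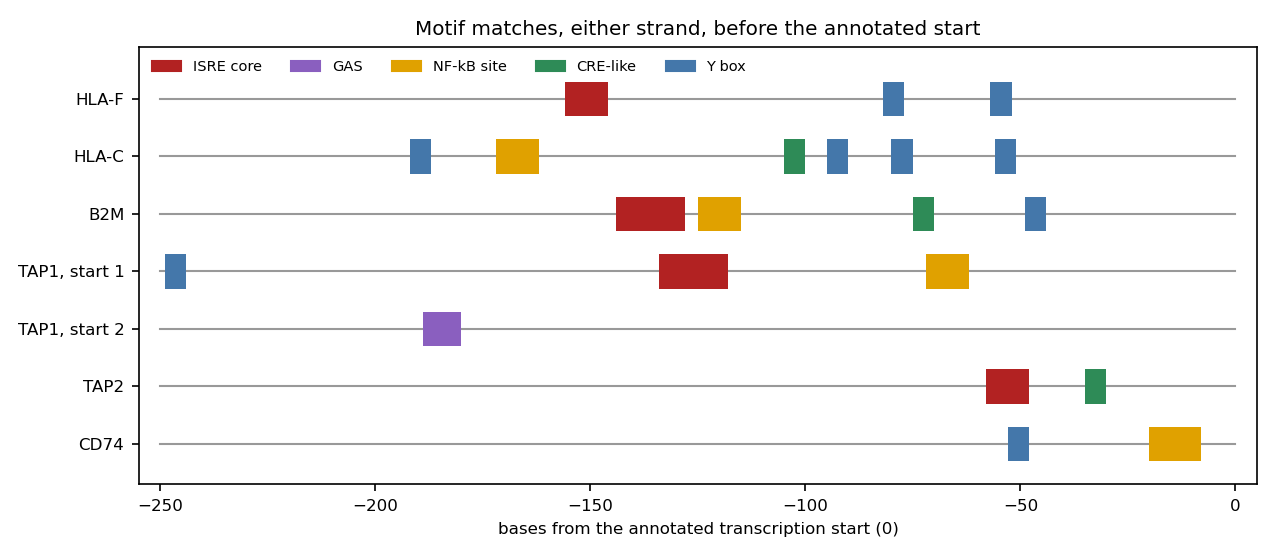
Matches to 5 patterns on either strand in the 250 bases before the annotated start of the analysed genes with a RefSeq promoter entry (HLA-B is not drawn), the x axis giving bases from the start and each bar the bases of a match (overlapping matches merge). Red ISRE bars are on the lines of HLA-F, B2M, TAP1 (start 1) and TAP2, and the lines of HLA-C and CD74 have none.

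Levels are given as CPM, the estimated count set against the scaled total of its library, with 1 scale over all 27 libraries. Totals ran from 73026244 to 120254457 estimated counts a library. A change was called where edgeR's quasi-likelihood test, fitted on all genes of a line, gave a Benjamini-Hochberg adjusted p under 0.05. MAML3 rose in every transfected line, in SK-N-SH from 22 CPM with vector to 12020 with FL and 9369 with dEx1, in BON-1 from 67.8 to 4042 and 3662, and in QGP-1 from 68.5 to 5475 and 4283. A count by gene does not separate plasmid from chromosomal transcript. All 7 neuroblastoma markers were present in SK-N-SH, while PHOX2A was at 0 in all BON-1 and QGP-1 groups. Others of the list did not set SK-N-SH apart, and only 3 averaged under 1 CPM in QGP-1 vector libraries. GATA2 had 34.9, 77.7 and 47.5 CPM in BON-1 vector libraries against 35.4, 27.7 and 10.4 in SK-N-SH vector libraries. ISL1 had 22.5, 20.5 and 19.5 CPM in QGP-1 vector libraries against 26.4, 26.8 and 18.9 in those of SK-N-SH. The neuroendocrine markers summed to at least 24910 CPM in each BON-1 vector library and at least 6137 CPM in each QGP-1 vector library, with NEUROD1 at 0 in QGP-1 and INSM1 at 0 in SK-N-SH. Some libraries stood apart from their groups. On the first principal component of SK-N-SH (40.7% of the variance), vector replicate 3 lay below 0 with the dEx1 libraries, while the other vector libraries scored 28.3 and 28.5. In BON-1, vector replicate 1 scored 107 against at most 0.115 for the other 8 libraries, and in QGP-1 vector replicates 2 and 3, FL replicate 3 and dEx1 replicate 3 lay below 0 and the other 5 libraries above.

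**Figure D2:**
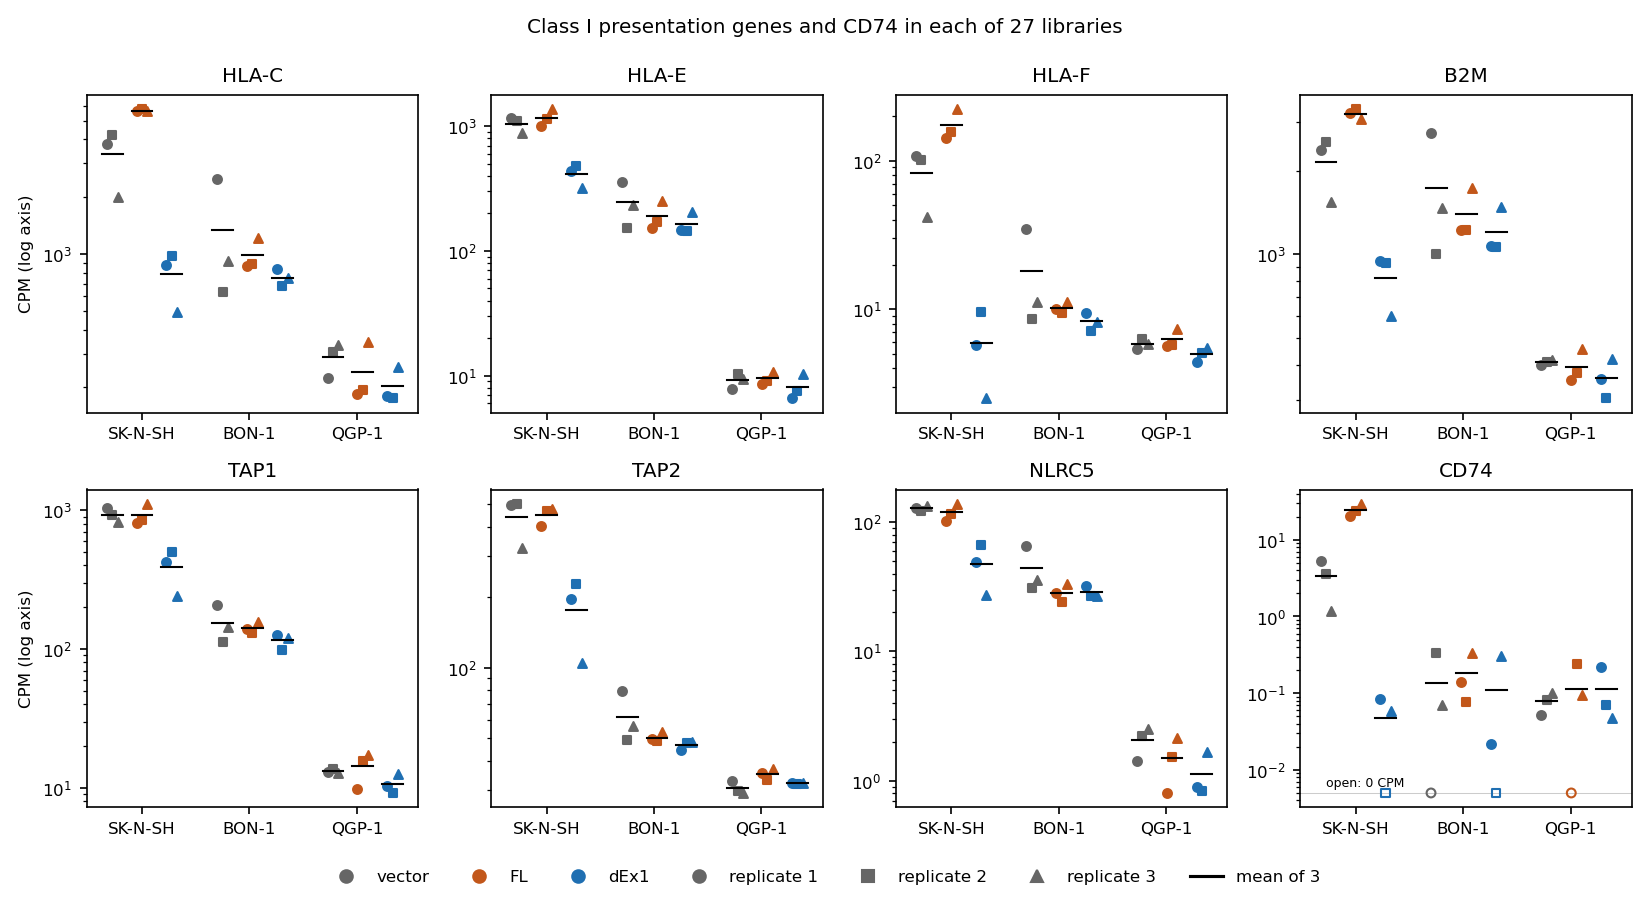
CPM on a log axis for the 8 genes in each of 27 libraries (points, shaped by replicate number and coloured by plasmid), with the mean of 3 as a line and open points for 0 CPM. In SK-N-SH the blue dEx1 points lie below the grey vector points for every gene, and in QGP-1 the groups overlap or nearly touch.

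SK-N-SH cells given dEx1 had lower levels of all 8 genes than cells given vector, and all 8 passed the test. The 7 class I genes fell by 1.26 to 3.80 on the log2 scale, and CD74 went from a low level to almost none. Over the 14674 genes tested, 4.47% were called in this comparison, and 3.64% were called lower. The median change of the 8 genes was -1.40 on the log2 scale, against 0.01 for all genes tested. In these bulk samples, fewer cells with class I transcripts and less transcript per cell cannot be told apart.

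Among the heavy chains, HLA-C measured 3786, 4242 and 1990 CPM in the SK-N-SH vector libraries and 876, 975 and 499 CPM in the dEx1 libraries. Vector replicate 3 was the lowest of its group and still lay above each dEx1 library. The HLA-C change was -2.09 on the log2 scale, 4.24-fold (SE 0.31, adjusted p = 0.0126). HLA-F, a non-classical heavy chain, had the lowest heavy chain levels, with 107, 101 and 41.6 CPM in the vector libraries against 5.78, 9.54 and 2.51 CPM with dEx1. The groups did not overlap, and the HLA-F change of -3.80 (SE 0.53, adjusted p = 0.0105), 13.9-fold, was the largest of the 7 class I genes. HLA-E, whose product presents leader peptides of other heavy chains to natural killer cells, measured 1173, 1104 and 876 CPM with vector and 440, 480 and 319 CPM with dEx1. It fell by 1.34 (SE 0.19, adjusted p = 0.0101), without overlap of the groups.

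The shared light chain moved with them. B2M measured 2370, 2532 and 1540 CPM with vector and 950, 929 and 598 CPM with dEx1, so vector replicate 3 and dEx1 replicate 3 were again the lowest of their groups. B2M fell by 1.37 (SE 0.22, adjusted p = 0.0145), 2.59-fold.

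Both subunits of the peptide pump fell to a like extent. TAP1 measured 1041, 917 and 829 CPM with vector and 424, 498 and 240 CPM with dEx1, a change of -1.26 (SE 0.25, adjusted p = 0.0288). TAP2 measured 494, 499 and 324 CPM with vector and 197, 229 and 105 CPM with dEx1, a change of -1.31 (SE 0.28, adjusted p = 0.0362). For both genes dEx1 replicate 3 was the lowest library, and the groups did not overlap.

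NLRC5, the transactivator, was even across the vector libraries, at 129, 123 and 133 CPM, and stood at 49.2, 65.9 and 27.5 CPM with dEx1. It fell by 1.43 (SE 0.27, adjusted p = 0.0247), and its vector replicate 3 was the highest of the group, unlike that of HLA-C, HLA-F and B2M. CD74 had 518, 307 and 105 estimated counts (5.36, 3.63 and 1.19 CPM) in the vector libraries and 7, 0 and 5 in the dEx1 libraries. No fold is given for a group so near 0, and the difference had an adjusted p of 0.00870 in the same test.

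How firmly these calls stood differed among the genes. CD74 passed in each of 18 alternative analyses. HLA-E and HLA-F lost the call only without dEx1 replicate 1, and HLA-C only without that library or vector replicate 1. B2M, TAP1, TAP2 and NLRC5 also lost it in some other analyses, among them the fit to only the 6 libraries compared. Without dEx1 replicate 1 only CD74 of the 8 genes passed, without vector replicate 1 there were 3, without vector replicate 2 there were 4, without FL replicate 1 there were 6 and without FL replicate 2 there were 7. The number of all genes called fell as well, from 656 to 80 without dEx1 replicate 1, 108 without vector replicate 1 and 154 without vector replicate 2. The 8 changes were negative in every one of these analyses, with a median of -1.48 without dEx1 replicate 1. Without vector replicate 3, the library that stood apart, all 8 passed, with a median of -1.53.

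FL gave another pattern in SK-N-SH. Only CD74 was called higher, 1 of 8, with 0.934% of all genes called higher and 1.74% called in either direction. CD74 had 20.6, 23.4 and 29.3 CPM in the FL libraries, each above all vector libraries, a change of 2.85 on the log2 scale (SE 0.56, adjusted p = 0.0480, 95% interval 1.57 to 4.13). That call was lost in 9 of 18 alternatives, with an adjusted p of up to 0.231: without vector replicate 1 or 2, without any 1 of the 3 FL libraries, without dEx1 replicate 1 or 3, with only the 6 libraries compared and with all 27 in 1 fit.

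HLA-C, HLA-F and B2M were also above every vector library with FL but did not pass. The share of all genes without overlap is not given here for any comparison. An unadjusted p under 0.05 was found for 2302 of 14674 genes with FL. HLA-C measured 5654, 5748 and 5621 CPM, a difference of 0.77 (adjusted p = 0.260, 95% interval 0.08 to 1.45). HLA-F measured 142, 157 and 221 CPM, a difference of 1.06 (adjusted p = 0.328, interval -0.02 to 2.14). B2M measured 3233, 3321 and 3061 CPM, a difference of 0.58 (adjusted p = 0.237, interval 0.09 to 1.07).

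For HLA-E, TAP1, TAP2 and NLRC5 the FL and vector libraries overlapped. HLA-E measured 1003, 1152 and 1363 CPM with FL, a difference of 0.16 (interval -0.25 to 0.57). TAP1 measured 815, 849 and 1109 CPM, a difference of -0.01 (interval -0.57 to 0.55), and TAP2 measured 400, 468 and 477 CPM, a difference of 0.03 (interval -0.59 to 0.65). NLRC5 measured 102, 116 and 138 CPM, a difference of -0.11 (interval -0.71 to 0.49). The adjusted p of these 4 genes lay between 0.754 and 0.996. A p that misses the threshold does not show that these genes were unchanged. Whether the first 3 genes differ from the other 4 in their response to FL was not tested.

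Set directly against FL, dEx1 libraries were lower for all 8 genes, all 8 were called, and the groups did not overlap. In this comparison 22% of all genes were called and 11.5% were called lower. An unadjusted p under 0.05 was found for 5231 of 14674 genes, and the share of all genes without overlap is not given. HLA-F fell by 4.86 (SE 0.56, adjusted p = 0.00129), HLA-C by 2.85 (SE 0.32, adjusted p = 0.00123) and B2M by 1.95 (SE 0.22, adjusted p = 0.00127). HLA-E fell by 1.50 (adjusted p = 0.00151), TAP2 by 1.34 (adjusted p = 0.0108), NLRC5 by 1.32 (adjusted p = 0.0104) and TAP1 by 1.25 (adjusted p = 0.00936). CD74, between 20.6 and 29.3 CPM with FL and at most 0.084 CPM with dEx1, had an adjusted p of 0.000591. All 8 calls held under each of 18 alternatives. The comparisons of FL and of dEx1 with vector share the vector libraries, so they are given side by side here and not related to each other.

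**Figure D3:**
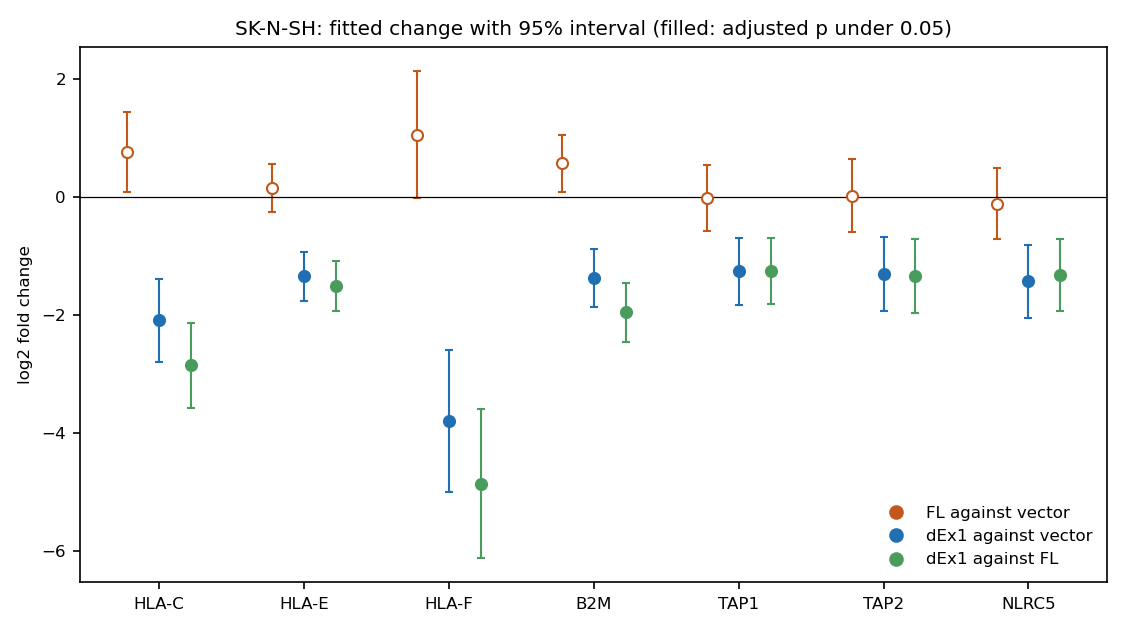
Fitted log2 fold changes in SK-N-SH with 95% intervals for the 7 class I genes, for FL against vector (orange), dEx1 against vector (blue) and dEx1 against FL (green), filled where the adjusted p was under 0.05. The blue and green points all lie below 0, while none of the orange points is filled. CD74 is left out because its dEx1 libraries were near 0.

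In BON-1, none of the 8 genes was called in any comparison by edgeR's test, nor by DESeq2. The share of all genes called was 0.00671% for FL against vector, 0.0134% for dEx1 against vector and 0% for dEx1 against FL, so few genes of any kind passed. At an unadjusted p under 0.05 there were 1 of 8 genes with FL (NLRC5), 3 with dEx1 (HLA-F, TAP2 and NLRC5) and 0 for dEx1 against FL. At that threshold stood 576, 429 and 156 of the 14903 genes tested. The medians of the 8 differences were -0.34 with FL and -0.55 with dEx1. BON-1 vector replicate 1 decided much of that: HLA-C had 2470 CPM there against 636 and 920 CPM in the other vector libraries. The FL libraries had 869, 887 and 1219 CPM of HLA-C and the dEx1 libraries 831, 681 and 747 CPM, inside the range of the vector group.

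The same library was the highest BON-1 vector library for all 7 class I genes. HLA-F had 34.8 CPM there against 8.58 and 11.2, and B2M had 2723 CPM against 1007 and 1473. NLRC5 had 65.4 CPM against 30.8 and 35.4. Without that library the BON-1 medians were 0.01 for FL and -0.21 for dEx1, and still none was called. HLA-E, TAP1 and TAP2 had group means of 248 ± 104, 155 ± 48.0 and 61.7 ± 15.8 CPM with vector. With FL these were 192 ± 51.6, 143 ± 13.8 and 50.4 ± 2.42 CPM, and with dEx1 they were 165 ± 34.5, 115 ± 14.9 and 46.9 ± 2.10 CPM (SD, n = 3). CD74 had at most 0.336 CPM in any BON-1 library.

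QGP-1 likewise had none of 8 genes called by edgeR or DESeq2. All genes called were 0.0275% for FL against vector, 0.0207% for dEx1 against vector and 0.0138% for dEx1 against FL, the last being 2 genes, and 0 genes with the replicate number as a block. At an unadjusted p under 0.05 there were 0 of 8 in each comparison, and 737, 527 and 186 of all 14522 genes tested. The medians of the 8 differences were 0.08, -0.19 and -0.22. HLA-C measured 225, 306 and 332 CPM in vector libraries, 185, 194 and 347 in FL libraries and 181, 175 and 256 in dEx1 libraries. The 4 libraries that lay apart on the first principal component were the 4 highest for HLA-C, whichever plasmid they carried. B2M was at 409 ± 9.19 CPM in vector libraries, 395 ± 55.0 in FL libraries and 360 ± 58.8 in dEx1 libraries. HLA-E, HLA-F, TAP1 and TAP2 lay between 4.43 and 37.1 CPM in all 9 QGP-1 libraries, NLRC5 between 0.802 and 2.50 CPM, and CD74 at or below 0.242 CPM.

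The difference between the lines was itself tested, in 1 model of all 27 libraries. MAML3 itself rose more with dEx1 in SK-N-SH, by 2.77 over QGP-1 (adjusted p = 0.0452) and by 2.98 over BON-1 (adjusted p = 0.038). The part of this larger MAML3 rise in the differences below was not tested. For dEx1 against vector, 0.521% of 16883 genes had a called difference between SK-N-SH and QGP-1, and 0.480% were lower in SK-N-SH. HLA-F was among them, with a difference between the log2 changes (SK-N-SH minus QGP-1) of -3.58 (SE 0.63, adjusted p = 0.00910). TAP2 was the other, at -1.38 (SE 0.29, adjusted p = 0.0310). The TAP2 call was lost in 7 of 18 alternatives (adjusted p up to 0.115), namely without SK-N-SH vector replicate 1 or 2, QGP-1 vector replicate 2 or 3, or any 1 of the 3 QGP-1 dEx1 libraries, while HLA-F passed in all 18. Against BON-1, where 0.332% of genes were called, none of the 8 passed, with HLA-F nearest at -2.67 (SE 0.62, adjusted p = 0.0615). Without BON-1 vector replicate 1 HLA-F passed there. For HLA-C, HLA-E, B2M, TAP1 and NLRC5 the SK-N-SH minus QGP-1 difference ran from -1.60 (HLA-C) to -0.57 (NLRC5), with adjusted p from 0.186 to 0.821. For these 5 genes the dEx1 change in SK-N-SH was not shown to differ from that in the other lines. For FL against vector 0 of 8 differences passed in either pair of lines, by edgeR or DESeq2, against 0.284% of genes for BON-1 and 0.160% for QGP-1. At an unadjusted p under 0.05 there were 3 of 8 (HLA-C, HLA-F and B2M) for BON-1 and 0 for QGP-1, and 1583 and 1459 of all 16883 genes.

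With vector, the lines differed in their levels of class I transcripts. Every library came from transfected cells, so levels before transfection were not measured. The part of transfection itself in these differences was not tested. In vector libraries SK-N-SH was called above QGP-1 for 8 of 8 genes and above BON-1 for 7 of 8, and BON-1 above QGP-1 for 7 of 8. Such differences were common: 60.6% of all genes were called for SK-N-SH against BON-1 (29.7% higher), 60.6% against QGP-1 (30.6% higher) and 51.4% for BON-1 against QGP-1 (27.7% higher). HLA-E ran from 1051 ± 155 CPM in SK-N-SH to 248 ± 104 CPM in BON-1 and 9.17 ± 1.24 CPM in QGP-1, and its SK-N-SH to QGP-1 difference of 6.84 (SE 0.33, adjusted p = 2.62e-13) was the largest of the class I genes. TAP1 ran from 929 ± 107 to 155 ± 48.0 and 13.2 ± 0.408 CPM, and NLRC5 from 128 ± 5.27 to 43.9 ± 18.8 and 2.05 ± 0.561 CPM. B2M differed least between SK-N-SH and either other line, at 2147 ± 532 CPM in SK-N-SH, 1734 ± 887 CPM in BON-1 and 409 ± 9.19 CPM in QGP-1, and its SK-N-SH to BON-1 difference of 0.31 did not pass (adjusted p = 0.332). Without BON-1 vector replicate 1 it passed. CD74 was not called between BON-1 and QGP-1, and without the same library HLA-F was not either (adjusted p = 0.127). With dEx1, HLA-F in SK-N-SH (5.95 ± 3.52 CPM) came to lie within the range of the QGP-1 vector libraries in its mean. TAP1 (387 ± 133 CPM) stayed above each BON-1 library in every SK-N-SH dEx1 library. HLA-E (413 ± 83.9 CPM) did so too, except that dEx1 replicate 3 (319 CPM) lay below BON-1 vector replicate 1 (358 CPM).

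Levels between genes were compared per kilobase of the canonical transcript. In SK-N-SH vector libraries B2M (2277 ± 564 CPM per kb) and HLA-C (2165 ± 772) were highest and not apart beyond their spread. HLA-E (413 ± 61.0) and TAP1 (346 ± 39.7) came next and overlapped, then TAP2 (77.8 ± 17.7) and HLA-F (56.2 ± 24.4), also overlapping. NLRC5 (18.9 ± 0.778) and CD74 (2.05 ± 1.27 CPM per kb) were lowest. With dEx1 the order of the first 5 genes was kept in the means, and HLA-F (4.02 ± 2.38) came to lie below NLRC5 (7.01 ± 2.84 CPM per kb), with overlap. In QGP-1 vector libraries B2M (433 ± 9.75) and HLA-C (187 ± 36.3 CPM per kb) again led, and TAP2 (5.42), TAP1 (4.90), HLA-F (3.95) and HLA-E (3.60 CPM per kb) lay close together.

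The other genes of the pathway were read by list, with counts for SK-N-SH dEx1 against vector, where 4.47% of all genes were called. Of 8 genes for peptide loading and trimming, 2 fell and none rose: ERAP1, the peptidase that trims peptides to length, by 1.12 (adjusted p = 0.0318) and TAPBPL, a peptide editor, by 1.11 (adjusted p = 0.0190). Their list had a median of -0.14, and the general chaperones CALR, CANX, PDIA3 and HSPA5 in it were not called. Of 6 proteasome genes 3 fell: PSMB9, an inducible subunit of the immunoproteasome, by 1.73 (adjusted p = 0.0177), and the PA28 activator subunits PSME2 by 0.94 (adjusted p = 0.0157) and PSME1 by 0.57 (adjusted p = 0.0430). PSMB8 and PSMB10 of the same list were not analysed here. The constitutive subunits PSMB5, PSMB6 and PSMB7 were not called. PSMB9 shares bases with TAP1 on the opposite strand, as said above.

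Since CD74 serves class II molecules, the class II list was read as well. Of its 8 genes tested 3 fell. CTSS, the protease that cuts the last part of the invariant chain, measured 295, 299 and 76.0 CPM in vector libraries, 526, 599 and 416 in FL libraries and 15.7, 16.1 and 12.2 in dEx1 libraries. It fell by 3.92 with dEx1 (SE 0.48, adjusted p = 0.00740), and its difference with FL did not pass (adjusted p = 0.218). CTSL, another lysosomal protease, fell by 0.68 (adjusted p = 0.0141). CIITA, the class II transactivator, had 1.11, 0.886 and 0.226 CPM with vector and was at 0 in all 3 dEx1 libraries (adjusted p = 0.0145). Class II molecules themselves were close to absent: HLA-DRA averaged 0.0113 CPM with vector and 0 with dEx1, and HLA-DRB1, HLA-DRB5, HLA-DQA1 and HLA-DOA were at 0 in both groups. The highest class II HLA gene with vector was HLA-DPA1, at 1.43 ± 0.451 CPM. Of 4 genes tested among MIF and the CD74 partners none was called with dEx1 by edgeR, and 1 (CD44) had an unadjusted p under 0.05, as did 3328 of all 14674 genes. CD44, which signals with CD74, had 497 ± 58.2 CPM with dEx1 and 641 ± 69.8 CPM with vector (adjusted p = 0.142), and DDT, a relative of MIF, had 41.0 ± 4.04 and 36.1 ± 4.07 CPM.

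Of 11 factors of class I and class II promoters, 2 fell. IRF1, an activator that binds the ISRE, measured 196, 199 and 186 CPM in vector libraries, 220, 226 and 202 in FL libraries and 63.6, 77.2 and 31.5 in dEx1 libraries. It fell by 1.75 (SE 0.27, adjusted p = 0.0140), and IRF2, which binds the same element, fell by 1.46 (adjusted p = 0.0185). The RFX, NFY and CREB family members tested were not called, nor were RELA and NFKB1. Of 11 genes of the interferon signal 3 fell. IFNB1 measured 22.1, 17.3 and 6.87 CPM in vector libraries, 1.78, 3.68 and 5.62 in FL libraries and 0.0600, 0.697 and 0.0584 in dEx1 libraries. IFNL1 had 14.9, 11.7 and 3.84 CPM with vector and at most 0.483 CPM with dEx1 (adjusted p = 0.0271). JAK2, a kinase bound to cytokine receptors, fell by 1.02 (adjusted p = 0.0121). The FL libraries were below every vector library for IFNB1, a difference that did not pass (adjusted p = 0.263). IFNL1 had 1.68, 2.33 and 5.35 CPM with FL, overlapping the vector libraries. A link of these levels to those of the class I genes was not tested.

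Ligands that restrain T cells fell beside the class I genes. Of 5 inhibitory ligands 4 fell with dEx1: CD274, which encodes PD-L1, by 1.77 (adjusted p = 0.00475), PDCD1LG2 by 1.15 (adjusted p = 0.00302), LGALS9 by 3.05 (adjusted p = 0.0166) and NECTIN2 by 0.54 (adjusted p = 0.0217). CD274 measured 200, 170 and 206 CPM in vector libraries, 142, 175 and 202 in FL libraries and 54.9, 69.9 and 44.2 in dEx1 libraries. PVR, a ligand like NECTIN2, was not called, nor were MICA, MICB, ULBP1, ULBP2 and ULBP3, whose products engage an activating receptor of natural killer cells. In BON-1 and QGP-1 no gene of these lists was called by edgeR's test.

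Some of these calls in SK-N-SH were less firm than others. Over 18 alternatives, PSME1 lost the call in 8 and ERAP1 in 7, while PSMB9, TAPBPL, NECTIN2 and IFNL1 lost it in 5 each. IFNB1, IRF2 and CTSL lost it in 4 each, JAK2, LGALS9 and PSME2 in 3 each, IRF1 in 2 and PDCD1LG2 in 1, and CD274 and CTSS in none. Each of these genes that lost it did so without dEx1 replicate 1, except PDCD1LG2, which lost it with all 27 libraries in 1 fit. CIITA was not followed through the alternatives.

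**Figure D4:**
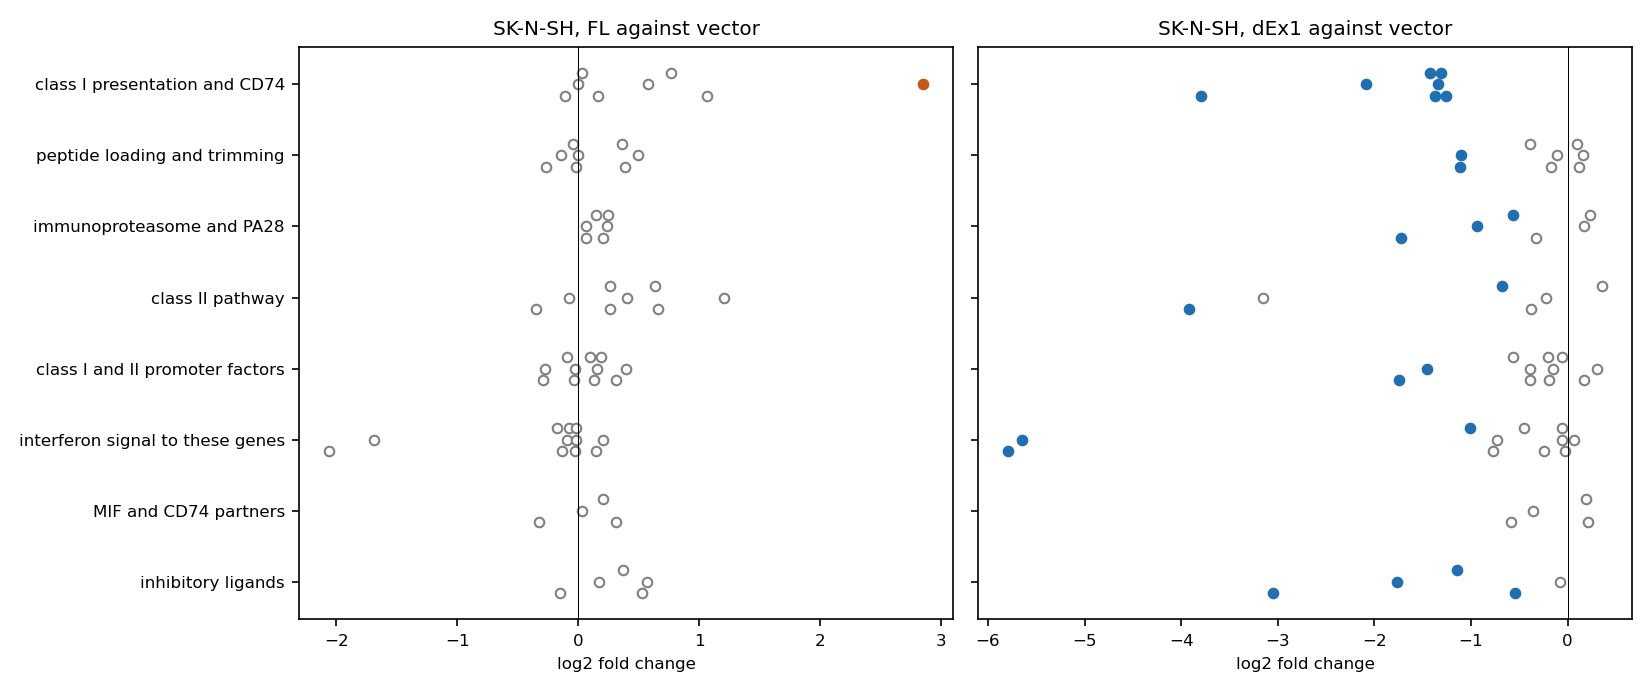
Log2 fold changes in SK-N-SH of each tested gene of 8 lists (points, filled where the adjusted p was under 0.05), for FL against vector on the left and dEx1 against vector on the right, on x axes of different range. The filled point on the left is CD74, and all filled points on the right lie below 0. Genes under 0.1 CPM in either group (CD74, CIITA and HLA-DPB1 on the right) are not drawn.

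Markers of other cell types were read beside these results in SK-N-SH. The 10 leukocyte markers summed to 224 to 322 CPM in vector libraries, 421 to 538 in FL libraries and 80.3 to 95.4 in dEx1 libraries. Nearly all of this was CD68, a lysosomal protein not confined to leukocytes, which was called in both directions, 0.76 with FL (adjusted p = 0.0466) and -1.71 with dEx1 (adjusted p = 0.00282). The FL call was lost in 12 of 18 alternatives (adjusted p up to 0.508), among them each fit without 1 library, and the dEx1 call in none. CD3E, MS4A1 and TYROBP were at 0 in all 3 groups, and PTPRC, which marks all leukocytes, had at most 1.09 CPM. The 5 fibroblast markers summed to 2131 to 6663 CPM, 2018 to 3549 and 5196 to 8089 CPM in the same groups. None was called for dEx1 against vector, and COL1A1, DCN and PDGFRB were called higher for dEx1 against FL. The part of these markers in the class I results was not tested.

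Among all other genes in SK-N-SH, those whose log2 CPM followed each member most closely over the 9 libraries were listed, as a description that rests on 3 groups of libraries, each library giving all genes 1 depth. HLA-C was nearest to VEGFC, a lymphatic growth factor (Pearson's r = 0.997), then MMP13 and IL7. B2M was nearest to MMP13 (r = 0.995), and HLA-F to CXCL10, an interferon-induced chemokine (r = 0.997). HLA-E was nearest to CXCL11 (r = 0.998) and GBP5 (r = 0.996), TAP1 to OAS3, MX1 and ISG15 (r from 0.991 to 0.993), TAP2 to XAF1 (r = 0.991) and NLRC5 to BATF2, PML and ZNFX1 (r from 0.992 to 0.994). CD74 was nearest to NXT2 (r = 0.995), IL7R (r = 0.995) and FOXO3 (r = 0.991). Among the members themselves, r ran from 0.768 for NLRC5 with CD74 to 0.999 for HLA-C with B2M over the same 9 libraries.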

How the data were processed

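RNA was sequenced from 3 cell lines in 27 libraries. The authors deposited estimated counts per gene, written as whole numbers. Per the submitters' processing notes, adapters were trimmed with Trimmomatic, reads aligned to hg19 with HISAT2 and transcripts assembled and quantified with StringTie, whose versions and count settings were not given in the sources used here. What 1 unit is worth in fragments was not given either: 7317 values were 5, against 4312 at 4 and 4436 at 1. Of 23234 listed symbols, 4 repeated an earlier symbol and were left out (the first of each was kept), leaving 23230. Groups came from the titles.

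Genes were filtered with filterByExpr, scaled by TMM and tested with edgeR 4.0.16 (R 4.3.3) by the quasi-likelihood F test, 9 libraries a line, with Benjamini-Hochberg adjustment over all genes tested. Differences between lines came from 1 model of 27 libraries. SE is the change divided by the square root of F. The fits were tested on simulated counts with known changes. Alternatives were no filter, a minimum mean of 2 CPM, DESeq2 1.42.0 size factors, its Wald test, a replicate block, other sets of libraries, a term for libraries that stood apart, counts divided by 5, and each library left out. Gene positions come from GENCODE lifted to hg19, promoters from RefSeq.

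Residual correlations of libraries with the same number exceeded 0.1 in every pair in BON-1 (lowest 0.113) and, in QGP-1, for dEx1 against FL (lowest 0.223), and were taken to pair them there. In SK-N-SH (lowest 0.0478, highest 0.461) and for the vector comparisons of QGP-1 (lowest -0.168) they were not. Falling under 0.1 does not show that those libraries were unpaired. The main tests used no block in any line, so pairing entered only through the replicate block among the alternatives.

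The text names all members, up to 4 called genes of each list by smallest p (or up to 2 where none was called), MAML3, and the 3 genes most alike each member by r. Some named items are not reported here. Other genes are named as parts of a list that were not called, or as markers. The members, lists and tests were chosen with earlier results of these data known.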

Additional observations from a re-analysis of the deposited data

Results flagged for a closer look

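HLA-F and TAP2 differed between SK-N-SH and QGP-1 in their change with dEx1 by a test of the difference itself. By the same test MAML3 also rose more in SK-N-SH than in QGP-1 (2.77, adjusted p = 0.0452), and the part of that was not tested. For HLA-F the log2 change against vector in SK-N-SH minus that in QGP-1 was -3.58 (SE 0.63, adjusted p = 0.00910, edgeR's quasi-likelihood test over 16883 genes). For TAP2 the difference was -1.38 (SE 0.29, adjusted p = 0.0310), and that call was lost in 7 of 18 alternatives. The same difference between SK-N-SH and BON-1 did not pass for HLA-F (-2.67, SE 0.62, adjusted p = 0.0615) or TAP2 (-0.92, SE 0.29, adjusted p = 0.214).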

How the results depend on the processing

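For dEx1 against vector in SK-N-SH, all 8 genes passed under every alternative that kept the 9 libraries or added the others, and 4 passed with only the 6 libraries compared. Leaving out each library in turn gave 1 to 8. For FL against vector the count of 1 became 2 with the replicate block (CD74 and B2M), 3 with a term for replicate 3 (CD74, B2M and HLA-C), and 0 with only the 6 libraries compared or with all 27 in 1 fit, and 0 to 1 with each library left out. The replicate block changed no other count of called members within a line. For dEx1 against FL it was 8 throughout, and for each comparison within BON-1 and QGP-1 it was 0 throughout. The difference of the dEx1 changes between SK-N-SH and BON-1, 0 of 8, became 1 with a minimum mean of 2 CPM, 1 with the replicate block and 2 with DESeq2, and 0 to 1 with each library left out. Against QGP-1 it ran from 1 to 3. For the FL changes it was 0 throughout. Between vector libraries the counts ran from 7 to 8 for SK-N-SH against BON-1 and from 6 to 7 for BON-1 against QGP-1, and stayed at 8 for SK-N-SH against QGP-1. The sign turned for 2 genes near 0 with FL in SK-N-SH. TAP1 (-0.01) was 0.014 with the replicate block and 0.015 with the term for replicate 3, and ran from -0.16 to 0.082 with each library left out. TAP2 (0.03) ran from -0.15 to 0.13 with each library left out. The cause was not tested.

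Counts over all genes moved more. For dEx1 against vector in SK-N-SH, 656 became 1997 with DESeq2, 2212 with the replicate block, 2714 with the term for replicate 3 and 300 with 6 libraries. For FL against vector, 255 became 1168, 778, 1117 and 28 in the same order, and for dEx1 against FL, 3226 became 5138 with the term. DESeq2 called 28, 35 and 8 genes in BON-1 where edgeR called 1, 2 and 0, and 112, 59 and 19 in QGP-1 where edgeR called 4, 3 and 2. A term for the first principal component gave 31, 11 and 7 in QGP-1, the 6 libraries alone gave 2, 1 and 0, the replicate block 8 for FL against vector and 0 for dEx1 against FL, and all 27 libraries 19 for FL against vector. Without a filter, or with counts divided by 5, dEx1 against FL gave 5 there, and with DESeq2 size factors 4. In BON-1, all 27 libraries gave 4 for FL against vector and 1 for dEx1 against FL, and 6 libraries gave 1 for dEx1 against vector. For the differences between lines, DESeq2 gave 369 and 403 for dEx1 (56 and 88 by edgeR) and 295 and 271 for FL (48 and 27), against BON-1 and QGP-1. The replicate block gave 483, 637, 318 and 309, and the minimum mean of 2 CPM gave 94 for dEx1 against BON-1.

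With 3 libraries a group, the 95% intervals of the FL differences in SK-N-SH reached from 0.08 to 1.45 for HLA-C and from -0.02 to 2.14 for HLA-F. CD74 had at most 33 estimated counts in any BON-1 or QGP-1 library, a low depth for comparing groups there.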
